A study of Mus musculus with 6 samples.

Results

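Enniatin A (EnnA) was set against its solvent, DMSO, by RNA sequencing of E0771 cells, a tumour line that came from the mammary gland of a C57BL/6 mouse. After 48 h of growth in medium with serum, cells of the EnnA group received the compound at 7.4 µM for 24 h, and for the DMSO group the labels give no exposure time. Each group had 2 libraries, which the authors pooled to 1 value per gene, in FPKM (fragments scaled by transcript length and by mapped fragments), so no value has an SD or n and depth per library is unknown. Whether the 2 libraries of a group were separate cultures is not in the labels, and all groups are of 1 cell line. The series also holds cells treated with the HSP90 inhibitor 17-AAG, described here only where its values stand beside those of EnnA.

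A gene entered the comparison with 1 FPKM or more in either group, which kept 10557 of the 11024 genes in the authors' deposited table. Of these, 10000 reached 1 FPKM in both groups, 163 only with EnnA and 394 only with DMSO. Genes that reached it in 1 group alone entered through the group where they are higher, some by a small margin, and they are part of the counts of all genes. Just inside the limit were Ccdc159, in an overlapping locus (1.001 FPKM with DMSO and 0.985 FPKM with EnnA), and Arl5c (0.378 and 1.001 FPKM), and just outside it were Il18bp (0.999 and 0.980 FPKM) and Slc5a8 (0.998 and 0.955 FPKM). The effect of a gene is log2((EnnA + 1)/(DMSO + 1)), in which the pseudocount of 1 FPKM understates the change of low genes. Calls, higher or lower, were made at a q under 0.05 in the authors' deposited table. The error beside a log2 ratio of the FPKM values is the standard error that the authors' p implies under a normal approximation, and where that p is 5e-05, the lowest, the error can only be smaller. No value per library was at hand to check these errors.

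Enniatins are cyclic depsipeptides of Fusarium fungi, made of alternating amino acid and hydroxy acid residues, that bind cations and carry them across membranes. Cells answer misfolded protein in the endoplasmic reticulum (ER) through the sensors IRE1, PERK and ATF6. XBP1 and ATF6 act on genes of folding, export and disposal of secretory proteins, often through the ER stress response element (ERSE) of the promoter, while PERK and related kinases phosphorylate the initiation factor eIF2, which favours translation of ATF4, an activator of genes of amino acid supply.

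On the FPKM scale as deposited, about as many genes were called higher with EnnA as lower. The balance of genes past 1 depended on the scaling, as given below. Of the 10557 genes, 2621 were called higher (24.8%) and 2631 lower (24.9%), while 5799 had an unadjusted p under 0.05. An effect of 1 or more was found for 456 genes (4.32%), and one of -1 or less for 504 genes (4.77%). With the genes that reached 1 FPKM in both groups alone, 2532 were higher and 2326 lower, and 409 and 415 lay past 1 in the 2 directions. The median effect of all genes was -0.0005, and the range from the 5th to the 95th percentile was -0.98 to 0.94. Among called genes the median effect was 0.61 for those higher and -0.64 for those lower. The median implied standard error was 0.169.

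Car6, a secreted carbonic anhydrase of saliva and milk, was at 1.06 FPKM with DMSO and at 119.7 FPKM with EnnA (effect 5.87, log2 ratio 6.81 with an implied SE of at most 1.68). Chchd10, a small protein of the mitochondrial intermembrane space, was at 6.85 and 212 FPKM (effect 4.76). Avil, an actin-binding protein of the villin family, was at 0.0789 FPKM with DMSO and at 11.7 FPKM with EnnA. Avil was below the 1 FPKM limit in the solvent, as was Akr1b7, and both entered the comparison through EnnA alone. Ppp1r15a, which encodes the GADD34 subunit of an eIF2 phosphatase, rose from 15.9 to 189 FPKM. Cyb5r1, a membrane-bound NADH reductase, rose from 37.2 to 302 FPKM, and Akr1b7, an aldo-keto reductase, from 0.215 to 7.83 FPKM. Il23a, the p19 subunit of interleukin 23, rose from 2.43 to 21.4 FPKM, and Angptl6, a secreted angiopoietin-like factor whose locus overlaps another listed gene, from 2.97 to 30.4 FPKM. The transcripts 5430416N02Rik, Gm11974 and 1810032O08Rik, named here only by their identifiers, rose from 51.0 to 535 FPKM, from 33.8 to 291 FPKM and from 37.1 to 311 FPKM.

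**Figure D1:**
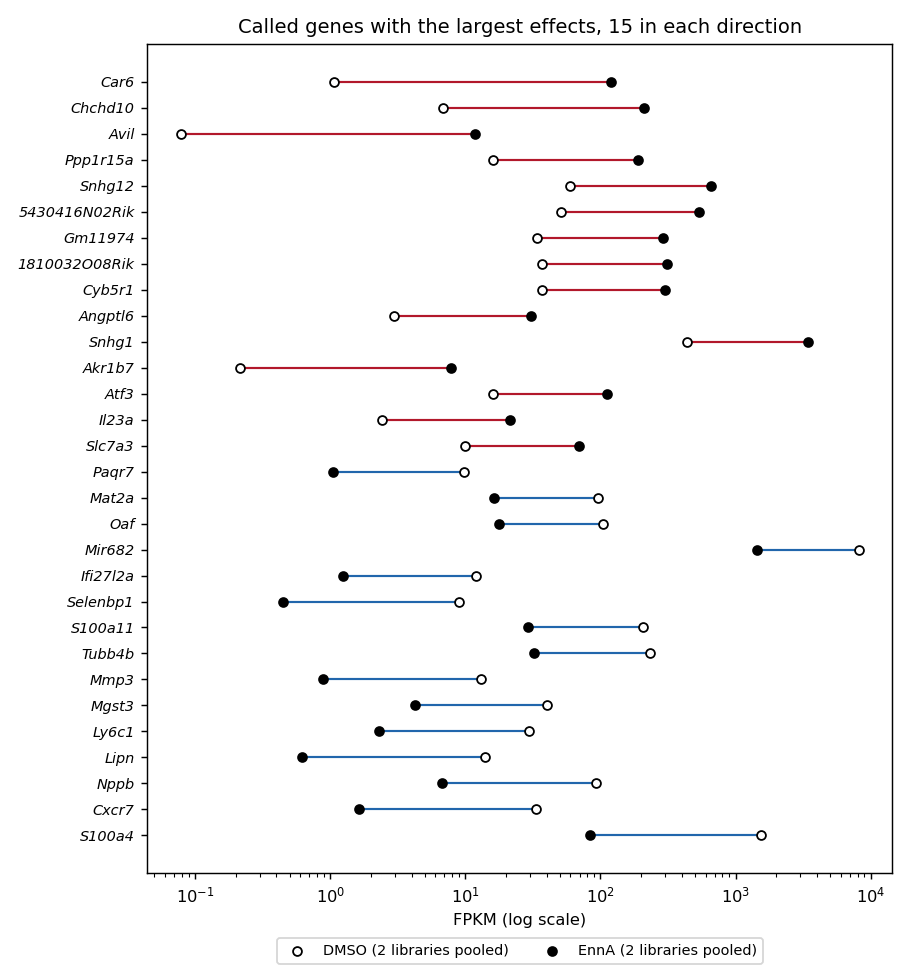
FPKM on a log scale with DMSO (open circles) and EnnA (filled circles), 1 value pooled from 2 libraries each, for the 15 called genes with the largest effect in each direction; lines join the values of a gene. Car6 spans 1.06 to 119.7 FPKM and S100a4 spans 1547 to 83.3 FPKM.

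Among the genes that fell, several were highly expressed in the solvent. S100a4, a calcium-binding protein linked to motility, was at 1547 FPKM with DMSO and at 83.3 FPKM with EnnA (effect -4.20, log2 ratio -4.22 with an implied SE of at most 1.04). Cxcr7, an atypical chemokine receptor, fell from 33.1 to 1.64 FPKM, and Nppb, which encodes brain natriuretic peptide, from 92.4 to 6.68 FPKM. Lipn, a lipase first described in skin, fell from 14.1 to 0.617 FPKM, and Selenbp1, a selenium-binding methanethiol oxidase, from 8.93 to 0.448 FPKM, and both entered the comparison through DMSO alone. Mgst3, a microsomal glutathione transferase, fell from 40.4 to 4.24 FPKM and Oaf from 104 to 17.7 FPKM. Mat2a, which makes the methyl donor S-adenosylmethionine, fell from 95.8 to 16.4 FPKM in a locus that overlaps another listed gene. Ly6c1, Mmp3, Tubb4b, S100a11, Ifi27l2a, Mir682 and Paqr7 completed the 15 largest effects below 0 among called genes, between -3.21 and -2.39.

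The largest increase in FPKM was that of a ferritin gene. Fth1, the ferritin heavy chain, was at 4511 FPKM with DMSO and at 11845 FPKM with EnnA, the highest level of any called gene in this comparison. The transcript 2410006H16Rik, from 1072 to 4654 FPKM, and Snhg1 came next. Ftl1, the ferritin light chain, rose from 1279 to 4083 FPKM, and Tfrc, the transferrin receptor that brings iron into the cell, rose as well, from 75.7 to 328 FPKM. The metal-binding metallothioneins Mt2 and Mt1 rose from 1298 to 3688 FPKM and from 746 to 2342 FPKM. Ferritin genes have many near-identical copies in the mouse genome, so their FPKM could hold reads of copies. The abundant cytoskeletal genes went the other way: Vim, vimentin, fell from 2746 to 1209 FPKM and Actb, beta-actin, from 1007 to 418 FPKM (effect -1.27). Gapdh, a glycolytic enzyme often used as a reference, was at 639 and 651 FPKM and was not called.

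Effects followed the level of expression. Below a mean of 2 FPKM, 12.8% of genes were called higher and 39.1% lower, with a median effect of -0.24. From 200 FPKM upward 41.0% were called higher and 12.6% lower, with a median effect of 0.26. The ranges between lay in order, as the plot of effect against expression shows. The FPKM of all 10557 genes summed to 523535 with DMSO and 590067 with EnnA, a log2 ratio of 0.17. Giving both groups the same sum, with the authors' q kept, moved the median effect to -0.15 and changed the direction of 0 calls, but left 303 genes at 1 or more and 762 at -1 or less. Effects below are as the FPKM columns give them, and a list median nearer to 0 than 0.16 changed sign under at least 1 scaling or filter in 21 lists, so no direction is given for these.

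**Figure D2:**
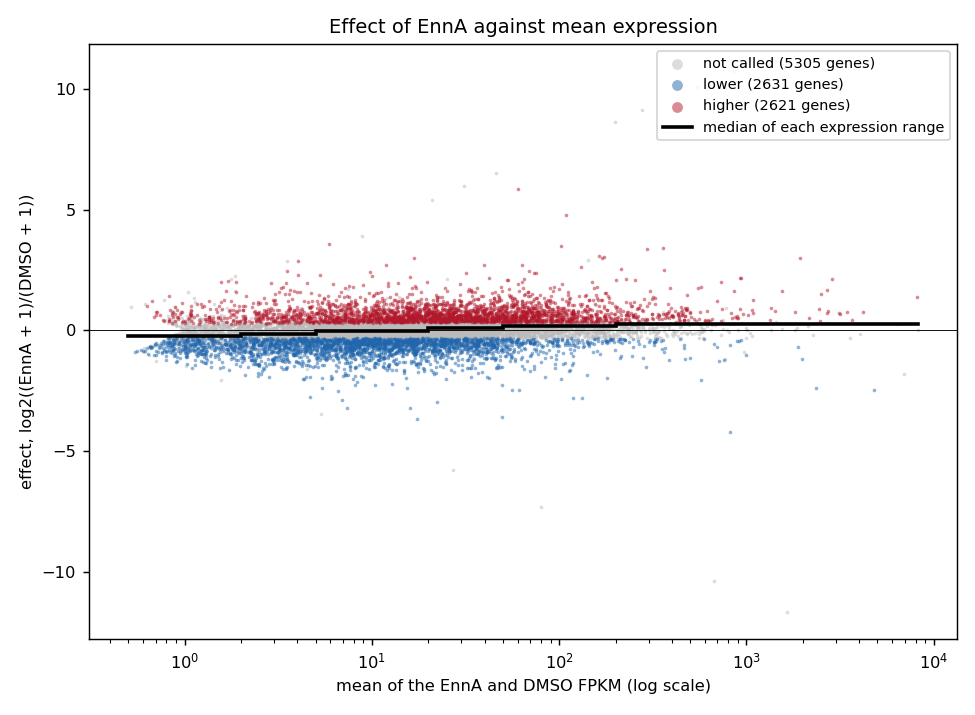
Effect of EnnA (log2 scale, vertical) against the mean of both FPKM values (log scale, horizontal) for 10557 genes, with called genes in red (2621 higher) and blue (2631 lower) and black lines at the median of each expression range. The medians climb from -0.24 below 2 FPKM to 0.26 at 200 FPKM and above.

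Genes of the ER stress and integrated stress responses formed the list with the highest median effect among the 48 lists of gene function. Of its 22 genes, 20 rose and 1 fell, with a median of 0.97. The lists were chosen with earlier results of these data known, so this rank is a description only. Hspa5, which encodes BiP, the Hsp70 chaperone of the ER lumen, was at 340 FPKM with DMSO and at 1532 FPKM with EnnA (effect 2.17). Calr, the lectin chaperone calreticulin, rose from 162 to 403 FPKM, and its membrane-bound relative Canx, calnexin, from 325 to 614 FPKM. Dnajc3, a cochaperone of BiP, rose from 18.9 to 32.2 FPKM and Hsp90b1, the HSP90 of the ER, from 714 to 1072 FPKM. The member that fell was Chac1, a glutathione-degrading enzyme known as a target of ATF4, at 6.47 FPKM with DMSO and 1.87 FPKM with EnnA. Trib3, a pseudokinase that binds ATF4 and is induced by it, rose from 40.2 to 139 FPKM. Of the 48 lists, 16 had shares of higher and of lower genes that both lay within 10 percentage points of those over all genes (24.8% and 24.9%), and their counts are given as a description only. Among these were protein disulfide isomerases, Rab GTPases, mTORC1 regulation, bHLH and Id factors, and forkhead and SOX factors. So were the Wnt, Notch, growth factor ligand, polycomb and histone acetylation lists, and the potassium, chloride and volume channels. Purine and pyrimidine synthesis, phospholipid synthesis, peroxisome genes and selenoproteins lay near those shares too.

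Promoter windows from RefSeq on GRCm38.p6, reaching from 250 bases before to 50 after the annotated start, were matched by gene symbol to 8528 of the 10557 genes. For a symbol with several windows the first was used. In these 300 bases, on both strands, the ERSE (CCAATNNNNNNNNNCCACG) was found in 35 of 27025 RefSeq windows (0.13%) and in 16 of the 8528. Of those 16 genes, 11 were called higher and 0 lower, and their median effect was 0.73. Matches of 9 genes of ER folding, glycosylation and disposal are shown because their genes all rose, with capitals for the fixed letters of the ERSE.
Hspa5, chr2:34772025-34772043, plus strand: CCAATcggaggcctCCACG
Calr, chr8:84847075-84847093, plus strand: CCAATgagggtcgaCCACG
Alg12, chr15:88819520-88819538, minus strand: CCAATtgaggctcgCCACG
Creld2, chr15:88819520-88819538, minus strand: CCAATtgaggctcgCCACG
Canx, chr11:50325800-50325818, minus strand: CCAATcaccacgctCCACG
Dnajc3, chr14:118937827-118937845, plus strand: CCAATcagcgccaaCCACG
Syvn1, chr19:6046532-6046550, plus strand: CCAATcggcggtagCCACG
Pdia6, chr12:17266491-17266509, plus strand: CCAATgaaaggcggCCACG
Hsp90b1, chr10:86705638-86705656, minus strand: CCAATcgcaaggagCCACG
Hsp90b1, chr10:86705533-86705551, plus strand: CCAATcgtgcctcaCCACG

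The genes Alg12 and Creld2 lie head to head on chromosome 15, and the match of both is the same 19 bases, between the 2 starts. Alg12, a mannosyltransferase of N-glycan assembly, was at 8.09 and 22.8 FPKM, and Creld2, a disulfide isomerase of the ER, was at 25.1 and 47.5 FPKM. Hsp90b1 had 2 matches, and each other gene had 1. Syvn1, the HRD1 ubiquitin ligase of the ER membrane, rose from 9.73 to 16.6 FPKM in a locus that overlaps another listed gene, and Pdia6, a disulfide isomerase, from 511 to 692 FPKM. The other 2 risen genes were Xlr3a and Xlr3b, near-identical copies on the X chromosome whose reads may be shared. The 5 genes with an ERSE that were not called were Xlr3c, Pan2, Ero1lb (2.98 and 2.99 FPKM), Hnrnpa3 and Adcy3, the last 2 in loci that overlap another listed gene. Hspa5 is the gene of the group with the largest effect, and its whole window on GRCm38.p6 reads, with the ERSE in capitals:
Hspa5, chr2:34771840-34772139, plus strand: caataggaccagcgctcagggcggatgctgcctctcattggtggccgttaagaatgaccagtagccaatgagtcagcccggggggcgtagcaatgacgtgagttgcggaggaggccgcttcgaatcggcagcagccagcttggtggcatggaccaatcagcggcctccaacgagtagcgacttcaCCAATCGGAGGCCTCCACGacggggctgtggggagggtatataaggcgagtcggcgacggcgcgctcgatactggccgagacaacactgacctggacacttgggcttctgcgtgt

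A composite element bound by ATF4 with C/EBP proteins (TGATGNAA) occurred in 1096 of the 27025 windows (4.06%) and in 176 of the 8528 matched genes (2.06%), of which 58 were called higher and 38 lower. The median effect of the 176 genes was 0.11, and over all genes 24.8% were called higher and 24.9% lower. Among called genes with an effect of 1 or more it was in 14 of 339 windows (4.13%), and among called genes at -1 or less in 9 of 378 (2.38%). The windows shown are of 3 genes with an effect above 1 and of Chac1, which fell although it has the same element, with capitals for the element on either strand.
Chchd10, chr10:75932880-75933179, plus strand: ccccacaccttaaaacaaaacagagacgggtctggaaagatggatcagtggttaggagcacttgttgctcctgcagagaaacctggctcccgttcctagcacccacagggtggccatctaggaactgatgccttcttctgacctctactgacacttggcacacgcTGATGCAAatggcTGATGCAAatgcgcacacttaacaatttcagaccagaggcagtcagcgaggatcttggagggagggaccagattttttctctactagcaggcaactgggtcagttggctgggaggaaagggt
Atf3, chr1:191183284-191183583, minus strand: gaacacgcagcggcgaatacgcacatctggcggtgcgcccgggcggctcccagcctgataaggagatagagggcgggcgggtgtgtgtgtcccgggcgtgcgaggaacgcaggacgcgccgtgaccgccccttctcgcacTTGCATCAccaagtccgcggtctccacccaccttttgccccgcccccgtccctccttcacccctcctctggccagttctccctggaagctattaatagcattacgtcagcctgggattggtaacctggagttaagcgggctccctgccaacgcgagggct
Trib3, chr2:152344011-152344310, minus strand: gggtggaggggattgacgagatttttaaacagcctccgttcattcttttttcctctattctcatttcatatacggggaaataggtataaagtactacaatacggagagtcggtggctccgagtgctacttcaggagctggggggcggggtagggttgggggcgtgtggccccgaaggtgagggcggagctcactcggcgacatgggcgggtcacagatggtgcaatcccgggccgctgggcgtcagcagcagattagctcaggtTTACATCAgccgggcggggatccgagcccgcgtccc
Chac1, chr2:119350992-119351291, plus strand: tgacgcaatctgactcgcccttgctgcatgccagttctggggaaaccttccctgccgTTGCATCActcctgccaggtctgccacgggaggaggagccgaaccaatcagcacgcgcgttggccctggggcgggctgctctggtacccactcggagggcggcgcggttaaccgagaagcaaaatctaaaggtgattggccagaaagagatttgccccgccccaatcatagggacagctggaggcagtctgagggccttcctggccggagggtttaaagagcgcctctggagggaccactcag

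Chchd10, the gene with the second largest effect among called genes, had 2 matches, whose first bases are 85 and 72 bases before the start, and both read identically. Atf3, a transcription factor of the stress response, rose from 15.9 to 111 FPKM and had its match 110 bases before the start. Other genes with the element that rose were Avil, Gadd45g, a growth arrest factor (22.7 and 124 FPKM), Asns, asparagine synthetase (330 and 618 FPKM), and the tRNA synthetase genes Tars and Aars, the latter in an overlapping locus. With it and lower were Tubb3, a neuronal beta-tubulin (7.63 and 1.28 FPKM), and the mitotic kinesin Kif2c (35.2 and 16.0 FPKM). The related UPRE (TGACGTGG), bound by XBP1, was in 164 of all windows (0.607%) and in 72 matched genes, of which 23 were higher and 11 lower. The median effect of the 72 genes was 0.08, and over all genes 24.8% were called higher and 24.9% lower. Genes with a UPRE that were higher included the secretory pathway genes Sec24d (15.1 and 25.04 FPKM), Copb1 (122.5 and 195 FPKM) and Arf1 (316 and 481 FPKM). A match describes letters and not binding, and Gadd45g, Asns, Tubb3, Sec24d, Copb1 and Arf1 were picked after their values were seen.

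**Figure D3:**
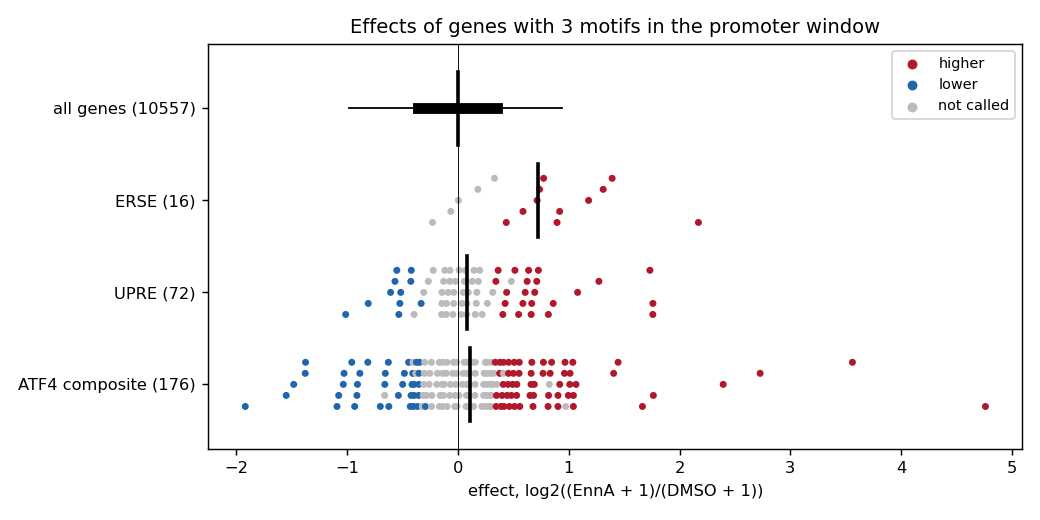
Effect of EnnA (log2 scale) for each gene with an ERSE (16), a UPRE (72) or an ATF4 composite element (176) in its promoter window, coloured by call, with black lines at medians; for all 10557 genes the thick bar spans the quartiles and the thin line the 5th to 95th percentile. The ERSE genes have a median of 0.73 and none is called lower.

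Of 15 motifs searched, the other 12 were looked for in the same windows. The TATA box (TATAAA) was in 561 of the 8528 windows (6.58%), in 13.3% of the windows of called genes with an effect of 1 or more and in 9.26% of those at -1 or less. The AP-1 element (TGANTCA) was in 4.90%, 9.44% and 7.67% of the same groups. The cell cycle element CHR (TTTGAA), known from mitotic genes, was in 11.7%, 10.9% and 17.2%. The antioxidant element (TGACNNNGC) was in 15.1%, 19.5% and 13.5%, and the heat shock element (GAANNTTCNNGAA) in 0.399%, 0% and 0%. The remaining motifs were CRE (TGACGTCA), the CCAAT box, which lies within every ERSE, the E-box (CACGTG), the sterol element (TCACNCCAC), E2F (TTTNNCGC), NF-kB (GGGNNTTCC) and the metal response element (TGCNCNCG). In the same 3 groups CRE was in 3.64%, 5.60% and 2.38% of windows, the CCAAT box in 39.9%, 40.1% and 46.3% and the E-box in 10.8%, 11.5% and 7.67%. The sterol element was in 0.915%, 1.77% and 1.06%, E2F in 9.51%, 9.73% and 6.88%, NF-kB in 7.61%, 8.85% and 6.08% and the metal response element in 21.7%, 22.7% and 19.0%. Over all 27025 windows these 7 motifs had shares of 1.88%, 37.9%, 7.24%, 1.22%, 5.27%, 5.72% and 13.0%. For the TATA box, AP-1, CHR, the antioxidant element and the heat shock element they were 14.2%, 7.93%, 18.1%, 12.5% and 0.529%. Promoters with few CpG sites held more of the large effects: among the 1706 genes with the fewest, 0 to 13 CpG in the window, 14.3% had an effect beyond 1 in either direction, against 5.45% of the 1706 with the most, 31 to 65. These shares were not tested, since no test over genes was made.

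**Figure D4:**
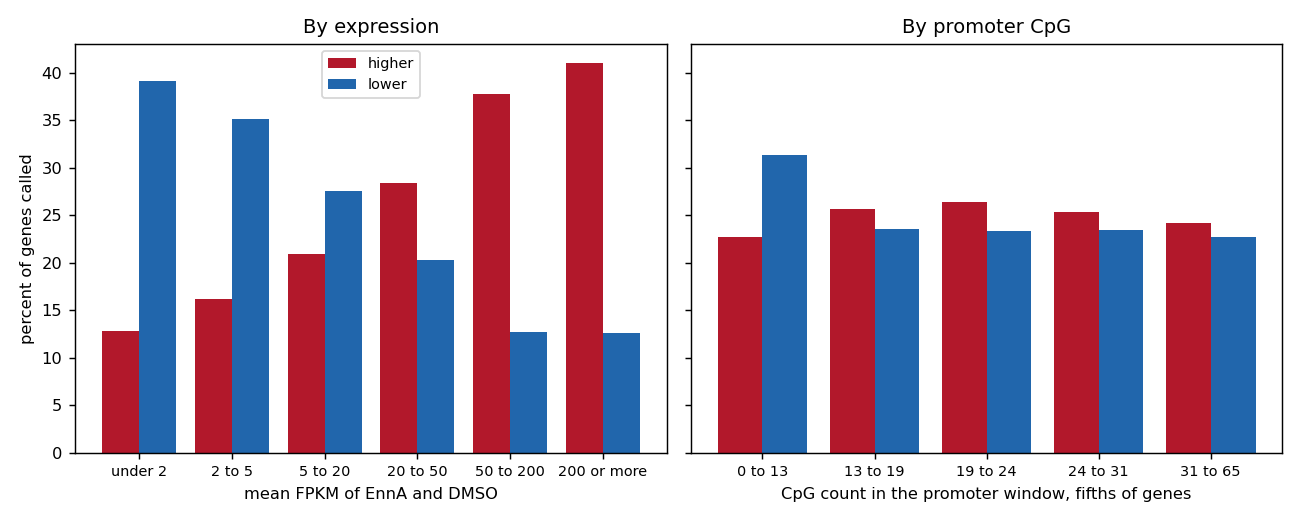
Percent of genes called higher (red) and lower (blue) with EnnA, by mean FPKM of both groups (left) and by the number of CpG, in equal groups of genes, in the 300-base promoter window (right). Below 2 FPKM 12.8% are higher and 39.1% lower, and at 200 FPKM and above 41.0% and 12.6%.

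In the list of the ER translocon and signal peptide processing, 20 of 26 genes rose and 0 fell (median effect 0.55, against -0.0005 over all genes). Sec61a1, the channel of the translocon, was at 64.1 FPKM with DMSO and at 165 FPKM with EnnA. Srprb, a subunit of the receptor for the signal recognition particle, rose from 20.1 to 51.1 FPKM, and Spcs2, a subunit of signal peptidase, from 59.2 to 147 FPKM. Its catalytic subunits Sec11a and Sec11c rose from 102 to 191 FPKM and from 49.1 to 92.9 FPKM.

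N-glycan assembly and transfer had 24 of 38 genes higher and 2 lower (median 0.44), and the FPKM of the list summed to 1920 with DMSO and 3823 with EnnA. Stt3a, a catalytic subunit of oligosaccharyltransferase, was at 149 and 461 FPKM, and Krtcap2, a small subunit of the same complex, was at 421 and 1291 FPKM. Ostc, another subunit, rose from 163 to 325 FPKM and Alg5, which makes dolichol-phosphate glucose, from 55.5 to 167 FPKM. The named gene that fell was Dolk, dolichol kinase, from 5.64 to 2.34 FPKM. ER-associated degradation, which returns misfolded proteins to the cytosol, had 18 of 29 genes higher and 1 lower (median 0.60, and 0.41 without genes that overlap another). Vimp, a selenoprotein of the export complex, rose from 60.1 to 241 FPKM, and Ube2g2, a ubiquitin-conjugating enzyme of the pathway, from 46.1 to 154 FPKM. Derl1, a channel component, rose from 32.4 to 68.9 FPKM and Aup1, which recruits Ube2g2 to the membrane, from 54.0 to 117 FPKM.

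Protein disulfide isomerases had 7 of 21 higher and 4 lower, with a median of 0.19. These shares, 33.3% and 19.0%, lay near the 24.8% and 24.9% over all genes. Pdia4 rose from 179 to 277 FPKM and Pdia5 from 18.9 to 29.9 FPKM, while Tmx3, a membrane-bound member, fell from 69.7 to 35.3 FPKM and Dnajc10, a reductase that works in degradation, from 50.3 to 33.0 FPKM. COPII and COPI coats, which carry vesicles between ER and Golgi, had 28 of 38 genes higher and 2 lower (median 0.62). Gosr2, a SNARE of this route, rose from 42.7 to 109 FPKM, and the cargo receptor Surf4, whose locus overlaps another gene, from 120 to 261 FPKM. The COPII subunits Sec23b and Sec24a rose from 49.7 to 95.5 FPKM and from 5.32 to 10.4 FPKM. Beyond the coats the change was mixed: in the list of Golgi structure and glycosylation 14 of 36 rose and 11 fell. Slc35b1, which brings ATP into the ER, rose from 42.6 to 164 FPKM, whereas Mgat2, which branches N-glycans in the Golgi, fell from 57.0 to 21.8 FPKM. Of 36 Rab GTPases, 10 rose and 6 fell (27.8% and 16.7%, near the 24.8% and 24.9% over all genes). Among them were Rab30 of the Golgi (4.30 and 9.97 FPKM) and Rab12, which acts on recycling endosomes (26.4 and 9.66 FPKM).

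**Figure D5:**
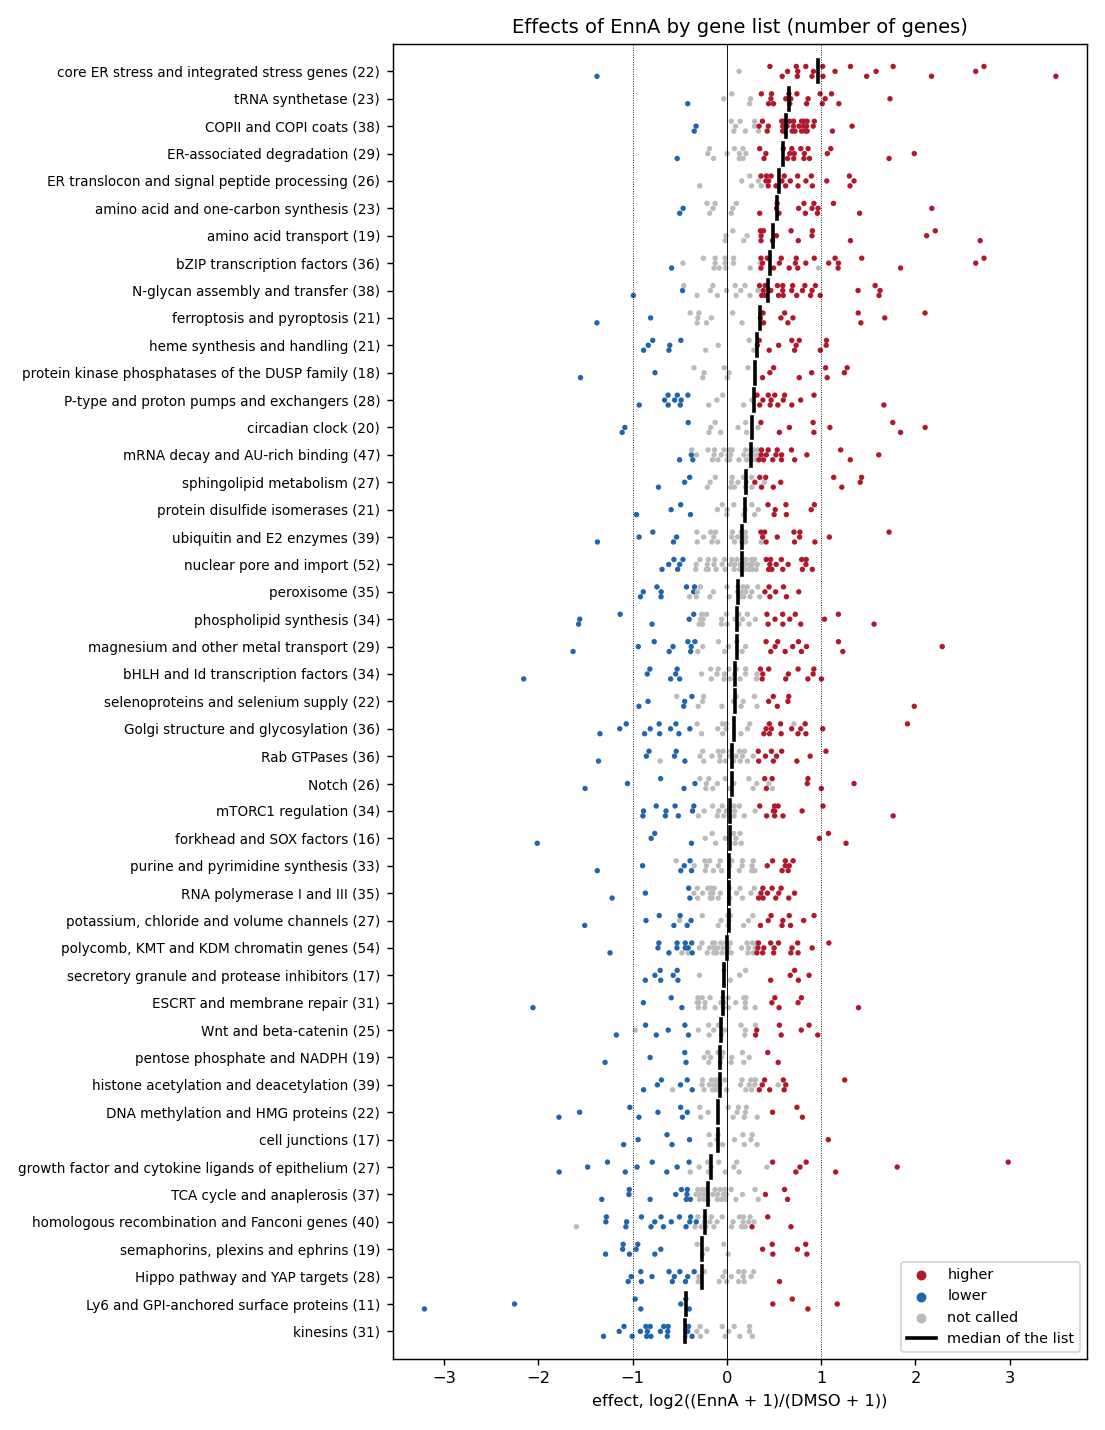
Effect of EnnA (log2 scale) for each gene of 47 lists, coloured by call, with a black line at the median of the list and the number of genes in parentheses; dotted lines mark -1 and 1. Lists of ER stress, tRNA synthetases, vesicle coats and amino acid supply lie at the top and kinesins, with a median of -0.44, at the bottom.

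Cytosolic tRNA synthetases had 18 of 23 genes higher and 1 lower (median 0.66, and 0.43 with the trend in expression removed). Wars, for tryptophan, was at 24.4 FPKM with DMSO and at 83.4 FPKM with EnnA, and Eprs, for glutamate and proline, was at 153 and 349 FPKM. Nars, for asparagine, rose from 205 to 444 FPKM and Sars, for serine, from 163 to 323 FPKM. Amino acid and one-carbon synthesis had 14 of 23 genes higher and 2 lower (median 0.53). Aldh1l2, a mitochondrial enzyme of folate metabolism, rose from 14.6 to 69.4 FPKM, and the serine synthesis genes Psph and Phgdh from 69.3 to 185 FPKM and from 44.3 to 84.9 FPKM. Bcat1, which transfers the amino group of branched-chain amino acids, rose from 27.5 to 61.4 FPKM.

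Transporters of amino acids had 14 of 19 genes higher and 0 lower (median 0.48). Slc7a3, for cationic amino acids, was at 9.94 and 69.4 FPKM, and Slc3a2, the shared heavy chain of several exchangers, was at 84.5 and 370 FPKM. Slc38a7, a glutamine carrier of the lysosome, rose from 7.87 to 20.99 FPKM, and Slc6a9, for glycine, from 5.03 to 26.9 FPKM in a locus that overlaps another gene. In mTORC1 regulation, which senses amino acids, 11 of 34 genes rose and 9 fell (32.4% and 26.5%, near the 24.8% and 24.9% over all genes). Sesn2, a leucine sensor and stress gene, rose from 7.27 to 15.8 FPKM while its relative Sesn1 fell from 15.1 to 8.58 FPKM. Eif4ebp1, a repressor of cap-dependent translation, rose from 304 to 529 FPKM.

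Transcription factors of the basic leucine zipper (bZIP) family had 21 of 36 genes higher and 1 lower (median 0.46). Next to Atf3 and Ddit3, the CHOP gene in an overlapping locus (35.5 and 227 FPKM), Nfil3, a repressor that also acts in the clock, rose from 6.82 to 27.0 FPKM. Jund and Junb, subunits of AP-1, rose from 29.4 to 80.8 FPKM and from 68.4 to 157 FPKM, and Mafk from 19.8 to 46.1 FPKM. Among bHLH and Id factors 11 of 34 rose and 7 fell (32.4% and 20.6%, near the 24.8% and 24.9% over all genes). Myc rose from 133 to 267 FPKM, and Mxd3, a partner of MAX that can oppose MYC, fell from 14.2 to 2.41 FPKM in an overlapping locus. Of 16 forkhead and SOX factors 3 rose and 4 fell: Foxs1, Foxj3 and Foxo3 rose, and Sox7 fell from 7.47 to 1.10 FPKM. Circadian clock genes had 9 of 20 higher and 3 lower (median 0.27). Nr1d1, the heme-binding repressor REV-ERB alpha, rose from 19.4 to 86.8 FPKM and Per1 from 7.31 to 27.1 FPKM, whereas Per3 fell from 2.36 to 0.556 FPKM.

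The dual-specificity phosphatases, which switch off MAP kinases, had 9 of 18 genes higher and 2 lower (median 0.30). Dusp1, Dusp4 and Dusp10 rose (25.1 and 60.8 FPKM, 64.0 and 120.1 FPKM, 16.8 and 35.7 FPKM), and Dusp6, which acts on ERK, fell from 69.1 to 22.9 FPKM. Hippo pathway genes and YAP targets had 12 of 28 genes lower and 1 higher (median -0.27). The receptor kinase gene Axl fell from 94.4 to 45.1 FPKM, Wwc1, an upstream regulator, from 16.9 to 7.88 FPKM, and Fstl1, a secreted glycoprotein, from 108 to 56.8 FPKM. In the Wnt list 7 of 25 rose and 6 fell (28.0% and 24.0%, near the 24.8% and 24.9% over all genes), with Wls, which exports Wnt proteins, at 66.7 and 131 FPKM and the receptor Fzd2 at 2.84 and 0.704 FPKM. Of 26 Notch genes 7 rose and 5 fell (26.9% and 19.2%), with the gamma-secretase genes Psen2 and Psenen higher (2.70 and 8.41 FPKM, 19.4 and 39.8 FPKM) and the feedback regulator Nrarp lower (3.71 and 0.659 FPKM).

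Lists of secreted and surface proteins held called genes in both directions. Of 27 growth factor and cytokine ligands, 7 rose and 9 fell (25.9% and 33.3%, near the 24.8% and 24.9% over all genes). Gdf15, a stress-induced hormone of the TGF-beta family, rose from 40.9 to 146 FPKM, while Stc1, stanniocalcin, fell from 4.35 to 0.556 FPKM and Gdf11 from 5.95 to 1.89 FPKM. Semaphorins, plexins and ephrins had 6 of 19 higher and 8 lower, and Sema4c, Sema3b and Sema6b all fell, to between 1.23 and 2.22 FPKM. Cell junction genes had 1 of 17 higher, Pvrl2 (17.1 and 37.1 FPKM), and 5 lower, among them Jup, plakoglobin (2.08 and 0.442 FPKM), and Ocln, occludin (2.50 and 0.823 FPKM). All 11 genes of the Ly6 and GPI-anchored list were called, 4 higher and 7 lower. Ly6a, the stem cell antigen Sca-1, fell from 82.3 to 16.5 FPKM and Ly6c1 from 29.5 to 2.30 FPKM, and Prnp, the prion protein, rose from 46.9 to 107 FPKM. In the list of secretory granule proteins and protease inhibitors 5 of 17 rose and 7 fell, with Cstb, cystatin B, at 651 and 1191 FPKM and Timp2 at 68.1 and 39.7 FPKM.

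All 10 alpha and beta tubulins fell (median -1.66), and their FPKM summed to 1523 with DMSO and 539 with EnnA. Tubb5 was at 655 FPKM with DMSO and at 287 FPKM with EnnA, and Tubb4b was at 231 and 32.5 FPKM. Tuba1a, Tuba1b and Tuba1c have near-identical coding sequences, so how their reads were divided is uncertain. Kinesins, motors on microtubules, had 18 of 31 genes lower and 0 higher (median -0.44). Kifc1 fell from 21.8 to 8.19 FPKM, Kif22 from 59.9 to 26.6 FPKM and Kif11, the motor that separates spindle poles, from 53.1 to 28.8 FPKM. The tubulin, S100, metallothionein and snoRNA host families were gathered by symbol after their values were known.

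Homologous recombination and Fanconi genes had 15 of 40 lower and 3 higher (median -0.24). Fancf fell from 5.18 to 1.54 FPKM, Exo1, a nuclease of end resection, from 7.86 to 3.24 FPKM and Fancd2 from 16.4 to 8.30 FPKM. Of 54 polycomb, KMT and KDM genes 15 rose and 11 fell (27.8% and 20.4%, near the shares over all genes), and histone acetylation had 8 of 39 higher and 6 lower (20.5% and 15.4%). Hdac8 rose from 12.2 to 30.3 FPKM and the demethylase gene Kdm4a from 12.2 to 26.9 FPKM, while Pcgf3, a polycomb subunit, fell from 14.01 to 5.35 FPKM. Of 22 genes of DNA methylation and high mobility group proteins, 3 rose and 8 fell. Hmgb2 fell from 57.9 to 16.1 FPKM, Hmga2 from 48.8 to 15.8 FPKM and Uhrf1, which recruits the maintenance methylase, from 34.1 to 16.2 FPKM, whereas Hmga1 rose from 204 to 357 FPKM.

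Of 47 genes of mRNA decay and AU-rich binding, 17 rose and 3 fell (median 0.25), led by Zfp36, tristetraprolin, which binds AU-rich elements of cytokine messages (16.1 and 51.2 FPKM), Zc3h12c (4.84 and 13.5 FPKM) and Btg1 (43.6 and 102 FPKM). Nuclear pore and import genes had 14 of 52 higher and 6 lower, and RNA polymerase I and III had 11 of 35 higher and 4 lower. Rae1, an mRNA export factor, rose from 57.7 to 104 FPKM and Cd3eap, a polymerase I subunit in an overlapping locus, fell from 7.81 to 2.79 FPKM. Of 39 ubiquitin and E2 genes 12 rose and 5 fell, with the E2 enzyme gene Ube2b at 155 and 59.0 FPKM.

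Among 189 long noncoding RNAs, 41 rose (21.7%) and 44 fell (23.3%), near the 24.8% and 24.9% over all genes. Host transcripts of small nucleolar RNAs carry these RNAs in their introns. Those listed as Gas5 or under a numbered Snhg symbol had 6 of 11 higher and 2 lower. The FPKM of these 11 summed to 1202 with DMSO and 5777 with EnnA. Any host listed under another name is not in these figures. Snhg1 was at 436 and 3441 FPKM and Snhg12 at 60.0 and 654 FPKM, both in loci that overlap listed small RNAs. Without such an overlap, Snhg5 rose from 61.8 to 366 FPKM and Gas5 from 74.0 to 203 FPKM, whereas Snhg3 fell from 67.7 to 37.0 FPKM. Pvt1, a neighbour of Myc, rose from 70.5 to 247 FPKM and Malat1 from 48.0 to 99.9 FPKM, while its neighbour Neat1, the scaffold of paraspeckles, fell from 154 to 57.0 FPKM and Mir17hg, host of the miR-17 cluster, from 10.4 to 1.91 FPKM. The named transcripts other than Snhg1 and Snhg12 were chosen after their values were seen. The small RNAs themselves were too uncertain to compare: 20 of 35 lay past 1 in either direction and 1 was called. Snord34 was listed at 3279 FPKM with DMSO and at 0 with EnnA, and Snord32a, in the same locus, at 0 and 1717 FPKM, and neither was called.

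Metabolic lists held called genes in both directions, and over all genes 24.8% were called higher and 24.9% lower. The purine and pyrimidine, phospholipid, peroxisome and selenoprotein lists lay near these shares. The TCA cycle and anaplerosis had 10 of 37 genes lower and 3 higher (median -0.20). Pdp1, which activates pyruvate dehydrogenase, and Pdk1, which inhibits it, both fell, from 21.4 to 7.93 FPKM and from 60.0 to 28.7 FPKM, and Me2, a mitochondrial malic enzyme, fell from 45.2 to 21.5 FPKM. In the pentose phosphate list 2 of 19 rose and 4 fell, with Ugdh at 77.6 and 31.1 FPKM. Of 33 genes of purine and pyrimidine synthesis 8 rose and 6 fell, and Dck, deoxycytidine kinase, fell from 11.4 to 3.77 FPKM. Phospholipid synthesis had 11 of 34 higher and 6 lower: the choline kinase gene Chka rose from 7.96 to 19.3 FPKM and Pcyt1b, a later enzyme of the choline branch, fell from 5.67 to 1.24 FPKM. Sphingolipid metabolism had 10 of 27 higher and 3 lower (median 0.20), with the ceramide synthase gene Cers6 at 10.3 and 25.2 FPKM, Sgpl1, which degrades sphingosine phosphate, at 48.2 and 107 FPKM and Ormdl3, an inhibitor of sphingolipid synthesis in the ER, at 20.4 and 56.0 FPKM. Of 35 peroxisome genes 7 rose and 8 fell, with Pex14 at 34.8 and 59.6 FPKM. Selenoprotein genes had 6 of 22 higher and 5 lower, with Gpx4, which reduces lipid peroxides, at 99.6 and 156 FPKM and Sephs2, which makes selenophosphate, at 34.0 and 17.3 FPKM.

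Since EnnA carries cations, genes of ion transport were described one list at a time. Pumps and exchangers had 14 of 28 genes higher and 9 lower (median 0.29). Fxyd5, a membrane protein of the FXYD family, rose from 118 to 191 FPKM, and Slc9a9, an endosomal sodium-proton exchanger, from 1.23 to 6.07 FPKM. Potassium, chloride and volume channels had 9 of 27 higher and 7 lower (33.3% and 25.9%, near the 24.8% and 24.9% over all genes). Clcn7 of the lysosome was at 10.7 and 21.2 FPKM and the water channel Aqp1 at 15.9 and 4.92 FPKM. Lrrc8d, a subunit of the volume-regulated anion channel, was at 17.4 and 28.3 FPKM. Magnesium and other metal transport had 12 of 29 higher and 9 lower. Slc41a3, a mitochondrial magnesium carrier, rose from 1.13 to 9.38 FPKM and Slc11a2, the iron carrier DMT1, from 41.0 to 94.4 FPKM, while Slc39a10, a zinc importer, fell from 20.7 to 6.01 FPKM. Heme synthesis and handling had 11 of 21 higher and 6 lower (median 0.32): Hmox1, which opens the heme ring, rose from 75.2 to 157 FPKM and Urod, an enzyme of heme synthesis, fell from 69.8 to 40.0 FPKM.

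Cell death by lipid peroxidation or membrane pores was covered by the ferroptosis and pyroptosis list, of which 11 of 21 genes rose and 2 fell (median 0.35, and 0.16 with a pseudocount of 5). Beside the iron genes above, Casp4, the caspase that senses lipopolysaccharide, rose from 36.7 to 99.8 FPKM. Dfna5, gasdermin E, was the gene that fell besides Chac1, from 2.62 to 1.06 FPKM. The ESCRT and membrane repair list had 6 of 31 genes higher and 4 lower. Vps37b, an ESCRT subunit, rose from 25.96 to 69.9 FPKM, and the annexins Anxa1 and Anxa2, which bind membranes in the presence of calcium, fell from 922 to 221 FPKM and from 982 to 651 FPKM.

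Some neighbouring genes changed in the same direction. In mm9, the build of the authors' deposited table, the S100 genes lie on chromosome 3, and the run of 7 genes with the lowest median effect (-1.59) was there, at chr3:90314955-90473956. It holds S100a1, S100a13, S100a3, S100a4, S100a6, S100a7a and S100a8, of which 5 fell. S100a6, which binds calcium and zinc, was at 3965 FPKM with DMSO and at 765 FPKM with EnnA, and S100a8, a subunit of calprotectin, was at 220 and 60.7 FPKM. S100a3 (4.71 and 3.72 FPKM) and S100a7a (0.300 and 1.97 FPKM) were not called. Over the whole family 7 of 9 listed S100 genes fell and 0 rose. On chromosome 15, at chr15:98708190-98889409, all 7 genes fell (median -1.56): the alpha-tubulins Tuba1b, Tuba1a and Tuba1c with Rhebl1, Dhh, Lmbr1l and Prph. On chromosome 6, at chr6:113574014-114987892, the median was 1.10 and 4 of 7 rose, with Vhl, the ubiquitin ligase subunit that targets hypoxia-inducible factors, at 17.5 and 41.5 FPKM and Irak2, a kinase of Toll-like receptor signalling, at 5.92 and 16.6 FPKM. Many overlapping runs were ranked to find these, so they are a description without a test.

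The labelled cell type was checked against marker genes. Of luminal mammary markers 5 of 18 were in the comparison, with the keratin Krt8 at 17.7 FPKM with DMSO and 11.2 FPKM with EnnA and Epcam at 1.61 and 1.85 FPKM. Basal markers had 3 of 13, and the basal keratins Krt5 and Krt14 and the basal factor Trp63 were not among the genes of the table, nor was the epithelial cadherin Cdh1. Among markers that were in it, Areg was at 48.8 and 33.5 FPKM, Itga6 at 59.4 and 32.3 FPKM and Acta2 at 133 and 34.5 FPKM, and the median gene was at 15.1 FPKM in both groups. Of luminal markers 1 was called higher, Esr1 (0.559 and 1.57 FPKM), and 2 lower. Basal markers likewise had 1 higher, Egfr (2.65 and 5.77 FPKM), and 2 lower. Of fibroblast markers 2 rose, Pdgfra (10.1 and 26.5 FPKM) and Pdgfrb (4.75 and 7.16 FPKM), and 1 fell, Col3a1 (63.7 and 27.3 FPKM). Vim, of mesenchymal cells, was at 2746 FPKM in the solvent. Summed marker levels with DMSO and with EnnA were 69.7 and 49.0 FPKM for luminal, 195 and 72.5 FPKM for basal, 78.6 and 61.0 FPKM for fibroblast (3 of 12 markers), 6.79 and 14.5 FPKM for endothelial (1 of 11), 1.16 and 3.80 FPKM for lymphocyte (1 of 16), 273 and 164 FPKM for myeloid (5 of 17), 432 and 149 FPKM for adipocyte (2 of 10) and 3.97 and 0.804 FPKM for erythroid markers (3 of 10). Of the myeloid sum S100a8 was 220 FPKM with DMSO and 60.7 FPKM with EnnA, while Cd68 rose from 38.0 to 89.1 FPKM and Cx3cr1 from 0.167 to 3.61 FPKM. The adipocyte sum was mostly the fatty acid binding protein gene Fabp4 (431 and 148 FPKM), and 2 of the 3 erythroid entries were alpha-globin genes that may share reads. The pan-leukocyte gene Ptprc was not in the table. What part other cells had in any result was not tested.

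Beside 17-AAG (0.5 µM, 24 h), which was set against the same DMSO libraries in a table normalised separately, EnnA moved more of the genes compared here far. Of 10524 genes of the EnnA comparison that also had 17-AAG values, 937 had an effect beyond 1 in either direction with EnnA and 246 with 17-AAG. These genes were chosen by their FPKM with EnnA or DMSO. Genes that reached 1 FPKM with 17-AAG alone were left out, which favours EnnA in these counts. Some leading genes are given side by side, without a test, since both comparisons share their solvent libraries. Car6 had effects of 5.87 with EnnA and -0.03 with 17-AAG, Chchd10 of 4.76 and 1.10, and Cyb5r1 of 2.99 and 0.33. Hspa5 had 2.17 and -0.36, Krtcap2 1.61 and -0.09, Aldh1l2 2.17 and 0.23, and Wars 1.73 and 0.16. The cytosolic chaperone gene Hsp90ab1, whose product 17-AAG binds, had 0.06 with EnnA (not called) and 0.79 with 17-AAG, and Hsp90aa1 had -0.18 (not called) and 0.64. S100a4 had -4.20 and -0.95, Cxcr7 -3.69 and 0.18, and Tubb4b -2.79 and -0.71. Fabp4 and S100a8 were lower with both, at -1.53 and -3.06 and at -1.84 and -3.04.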

How the data were processed

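RNA of E0771 cells was sequenced in 2 libraries per group. Reads were aligned with STAR to mm9 and compared with Cufflinks and Cuffdiff, per the submitters' processing notes, and the versions of these tools are not given. The group values in the deposited table were read as FPKM, pooled over 2 libraries by the authors. The log2 fold change in the deposited table is DMSO over EnnA, so directions were taken from the FPKM columns. The p-value and q-value are those of the authors' deposited table, and the q-value equals a Benjamini-Hochberg adjustment of the p-value over all genes listed (largest difference 5.24e-07). Loci are in mm9 as deposited, and whether their start counts from 0 or 1 is not stated. Genes whose locus overlaps another listed gene (1144 of the genes compared) are marked as uncertain where named.

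Effects were computed as log2((EnnA + 1)/(DMSO + 1)) with numpy 2.4.6 and pandas 2.3.3, and implied standard errors with scipy 1.17.1 as the size of the log2 ratio over the normal quantile of the authors' p. For 2633 genes at the lowest p this is an upper limit. The computation was run on simulated data whose p came from the same normal formula. That checks the arithmetic and not the errors of these data. The 56 gene lists (8 of cell type markers), the members and the tests were chosen with earlier results of these data known, so no list is independent evidence. Lists are described by counts and medians, with no test of a list. Named genes are 10 reference genes, the 15 largest effects in each direction, up to 6 called genes per list, genes listed at 0 in 1 group and those at the 1 FPKM limit, while genes named for an ERSE, a difference in FPKM, a family or a run of neighbours were chosen after their values were seen. Promoter windows are RefSeq's on GRCm38.p6, and 2029 genes had none matched. Alternatives were other thresholds, minimums, pseudocounts and scalings. Results for a few genes and 1 list are not reported here.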

Additional observations from a re-analysis of the deposited data

How the results depend on the processing

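No paired analysis was possible because the authors' deposited table holds 1 value per group, pooled over 2 libraries. For the same reason no library could be left out. Asking also for an effect of 1 or more left 430 genes higher and 487 lower. Giving both groups the same sum of FPKM left 303 genes at 1 or more and 762 at -1 or less. A pseudocount of 0.1 put 865 genes at -1 or less, and one of 5 put 252 at 1 or more and 201 at -1 or less. These follow from how the settings are built. All other counts of called genes, and of genes past 1, stayed within 1.5 times the reported ones under a q under 0.01 (2013 higher and 2122 lower), a minimum of 5 FPKM, no minimum, 1 FPKM in both groups, no overlapping genes, a median gene at 0 and removal of the trend with expression, the last added after seeing the data. At 1 FPKM in both groups 2532 genes were higher and 2326 lower, and at a minimum of 5 FPKM 2358 and 1933. No called gene named here changed direction under any scaling tried. A change of pseudocount cannot alter a direction, and equal sums moved the median effect only to -0.15. The authors' q was kept throughout, so these settings did not test the calls. Medians of 21 lists, none beyond 0.16 in size, changed sign under at least 1 setting. With pooled values and no counts, neither depth nor the spread between libraries could be read, so small changes rest on the authors' p alone.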

Other observations

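Among the 1939 genes with the shortest coding sequence (median coding length 534 bases), 29.6% were called higher and 19.1% lower, and among 1938 longer ones (median 1968 bases) 22.4% and 29.6%. Among the 1939 with the longest coding sequence (median 3396 bases) the shares were 24.0% and 25.4%, so they did not follow length throughout. The median expression of these 3 groups was 34.5, 12.9 and 9.50 FPKM. By chromosome, the share called higher ran from 21.3% on chromosome 10 to 30.2% on chromosome 3. Of 43 genes past 1 in either direction that were not called, 19 were small RNAs. Fbxw20 and Slc28a1 were listed at 0 with DMSO and at 1.33 and 1.64 FPKM with EnnA.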
